A study of Mus musculus with 62 samples.

Results

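The adult globin genes and the heme synthesis gene Alas2 were described in RNA-seq libraries of the male mouse reproductive tract. The rule named 5 genes, Hba-a1, Hba-a2, Hbb-bs, Hbb-bt and Alas2, and the rows of the deposited table carrying these symbols were taken. It found 4 of them among 23845 genes, 3 globin rows and Alas2. Hba-a1 was not analysed here. The genes were chosen by the measured level of Hba-a2, which had been seen among the genes higher in the caput of germ-free (GF) mice than in that of specific-pathogen-free (SPF) mice, so that contrast is given below as a description with no test.

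The study asked how a lack of microbes affects the testis and the epididymis, whose proximal segment is the caput and whose distal segment is the cauda. All mice were adult C57BL/6 males, 8 to 14 weeks old, and each library was made from polyadenylated RNA of 1 animal's tissue. GF mice were wild type and came from a colony kept in sterile isolators (4 testis, 6 caput and 6 cauda libraries). GF × SPF F1 mice were wild-type sons of GF fathers and SPF mothers, bred under conventional housing (3 caput and 3 cauda libraries). Rag2-/- mice lack T and B cells (2 caput and 3 cauda libraries). Their reference was a first set of wild-type SPF controls (3 testis, 4 caput and 4 cauda libraries). Recolonized GF mice were wild-type descendants of GF mice bred for generations in conventional housing (3 libraries of each tissue), and their reference was a second set of wild-type SPF mice (5 libraries of each tissue). GF cauda replicate 4 came from a swollen cauda, which the authors left out, and it is kept out of every comparison here.

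Hemoglobin carries oxygen in red blood cells as a tetramer of a pair of alpha and a pair of beta chains around heme. In mice the alpha chains come from the neighbouring genes Hba-a1 and Hba-a2, and in C57BL/6 mice the adult beta chains come from Hbb-bs and Hbb-bt. Alas2 encodes the erythroid form of the first enzyme of heme synthesis, and Alas1 the form used by other tissues. Circulating mouse red cells have no nucleus, but the youngest of them, the reticulocytes, still hold globin mRNA, so organs carry some of it in their vessels.

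The sequences of the coding regions are shown first because they set how far the copies can be told apart. In the GENCODE annotation of GRCm38, the coding sequences of Hba-a1 and Hba-a2 differed at 1 of 429 bases. Those of Hbb-bs and Hbb-bt differed at 1 of 444 bases, with an identical run of 416 bases. A window of 60 bases around each difference reads as follows, with the differing base in capitals.
Hba-a1 coding bases 351 to 410: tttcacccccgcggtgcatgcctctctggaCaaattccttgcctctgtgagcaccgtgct
Hba-a2 coding bases 351 to 410: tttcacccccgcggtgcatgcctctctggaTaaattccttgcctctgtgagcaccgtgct
Hbb-bs coding bases 385 to 444: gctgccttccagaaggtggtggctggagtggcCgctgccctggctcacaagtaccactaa
Hbb-bt coding bases 385 to 444: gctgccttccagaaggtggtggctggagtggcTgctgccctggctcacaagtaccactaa
After the stop codon Hba-a1 and Hba-a2 were identical over 74 aligned bases, so reads from the alpha copies can hardly be told apart, and the Hba-a2 row may hold RNA of either. That row lists its transcript 2 times, once with the locus chr11:32296491-32297310 (mm10, as written in the file). Hbb-bs and Hbb-bt differed there at 32 of 120 aligned bases. The split between the beta rows therefore rests mostly on bases outside the coding sequence and is uncertain, whereas alpha and beta coding sequences were only 55.4% identical.

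On GRCm38.p6, Hba-a2 lies at chr11:32296492-32297310, Hbb-bs at chr7:103826523-103827928, Hbb-bt at chr7:103812524-103813923 and Alas2 at chrX:150547417-150570622. The promoter sequences are given as background. Whether they had a part in how the globin rows moved together, as described below, was not tested. The 250 bases before each start site (RefSeq, GRCm38.p6) read as follows, 5′ to 3′ on the gene's own strand, with every match to the motif GATAA, to CACCC, to CCAAT and to TATAA, on either strand, in capitals.
Hba-a2 promoter, chr11:32296242-32296491, plus strand: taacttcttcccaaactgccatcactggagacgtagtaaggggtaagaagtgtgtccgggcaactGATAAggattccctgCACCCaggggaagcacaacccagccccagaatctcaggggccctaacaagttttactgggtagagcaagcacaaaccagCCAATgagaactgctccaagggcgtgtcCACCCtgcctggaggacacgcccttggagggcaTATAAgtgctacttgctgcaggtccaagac
Hbb-bs promoter, chr7:103827929-103828178, minus strand: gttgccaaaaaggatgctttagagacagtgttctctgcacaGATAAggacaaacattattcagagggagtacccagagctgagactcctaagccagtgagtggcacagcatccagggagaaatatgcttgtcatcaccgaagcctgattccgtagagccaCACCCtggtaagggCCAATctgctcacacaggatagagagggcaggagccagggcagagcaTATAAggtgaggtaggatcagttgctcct
Hbb-bt promoter, chr7:103813924-103814173, minus strand: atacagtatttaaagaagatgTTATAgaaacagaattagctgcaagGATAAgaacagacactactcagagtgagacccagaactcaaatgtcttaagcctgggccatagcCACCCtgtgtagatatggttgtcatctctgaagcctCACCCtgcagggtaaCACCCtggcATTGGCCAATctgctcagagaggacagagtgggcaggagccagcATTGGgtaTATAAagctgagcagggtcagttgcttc
Alas2 promoter, chrX:150547167-150547416, plus strand: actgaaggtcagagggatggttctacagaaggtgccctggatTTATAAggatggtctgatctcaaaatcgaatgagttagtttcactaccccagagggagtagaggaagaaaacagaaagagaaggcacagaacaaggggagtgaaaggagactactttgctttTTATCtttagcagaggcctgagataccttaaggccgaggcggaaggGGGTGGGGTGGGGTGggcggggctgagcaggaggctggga
GATAA is the core of the motif bound by GATA factors, and CACCC is bound by KLF factors. All 4 motifs were found in the 3 globin promoters. The Alas2 window held 3 of them and no match to CCAAT. Its TATAA matches lay 207 and 208 bases before the start, whereas each globin promoter had one at 28 to 30 bases. Over 32851 RefSeq promoter windows of this length, 22.6% held GATAA, 52.0% CACCC, 33.8% CCAAT and 22.8% TATAA, so single matches are common.

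The values are TPM (transcript abundances scaled to 1 fixed total per library), which correct for transcript length and library size but keep no read counts, so the depth behind each value is unknown. Between 13105 and 18822 genes were above 0 TPM in a library. The tissue labels held: the spermatid gene Prm1 was at 17249 to 27641 TPM in testis and at most 399 TPM elsewhere, and the caput gene Lcn8 was at 14696 to 31629 TPM in caput and at most 87.2 TPM elsewhere. Rag2 was at 0 TPM in every caput and cauda library, so it could not check the Rag2-/- label there. Of the T cell genes, Cd3g was at 0 to 0.26 TPM in Rag2-/- cauda and 0.71 to 1.42 TPM in SPF cauda, while Cd3e was at 1.98 to 2.12 TPM in Rag2-/- caput and 1.45 to 2.83 TPM in SPF caput. The SPF sets were not interchangeable: in the caput 2343 of 12336 genes passed the test between the second and the first set. GF caput replicate 5 and GF cauda replicate 5 stood apart in the beta-globin rows, and the first-set testis libraries stood apart in all globin rows, as described below.

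**Figure D1:**
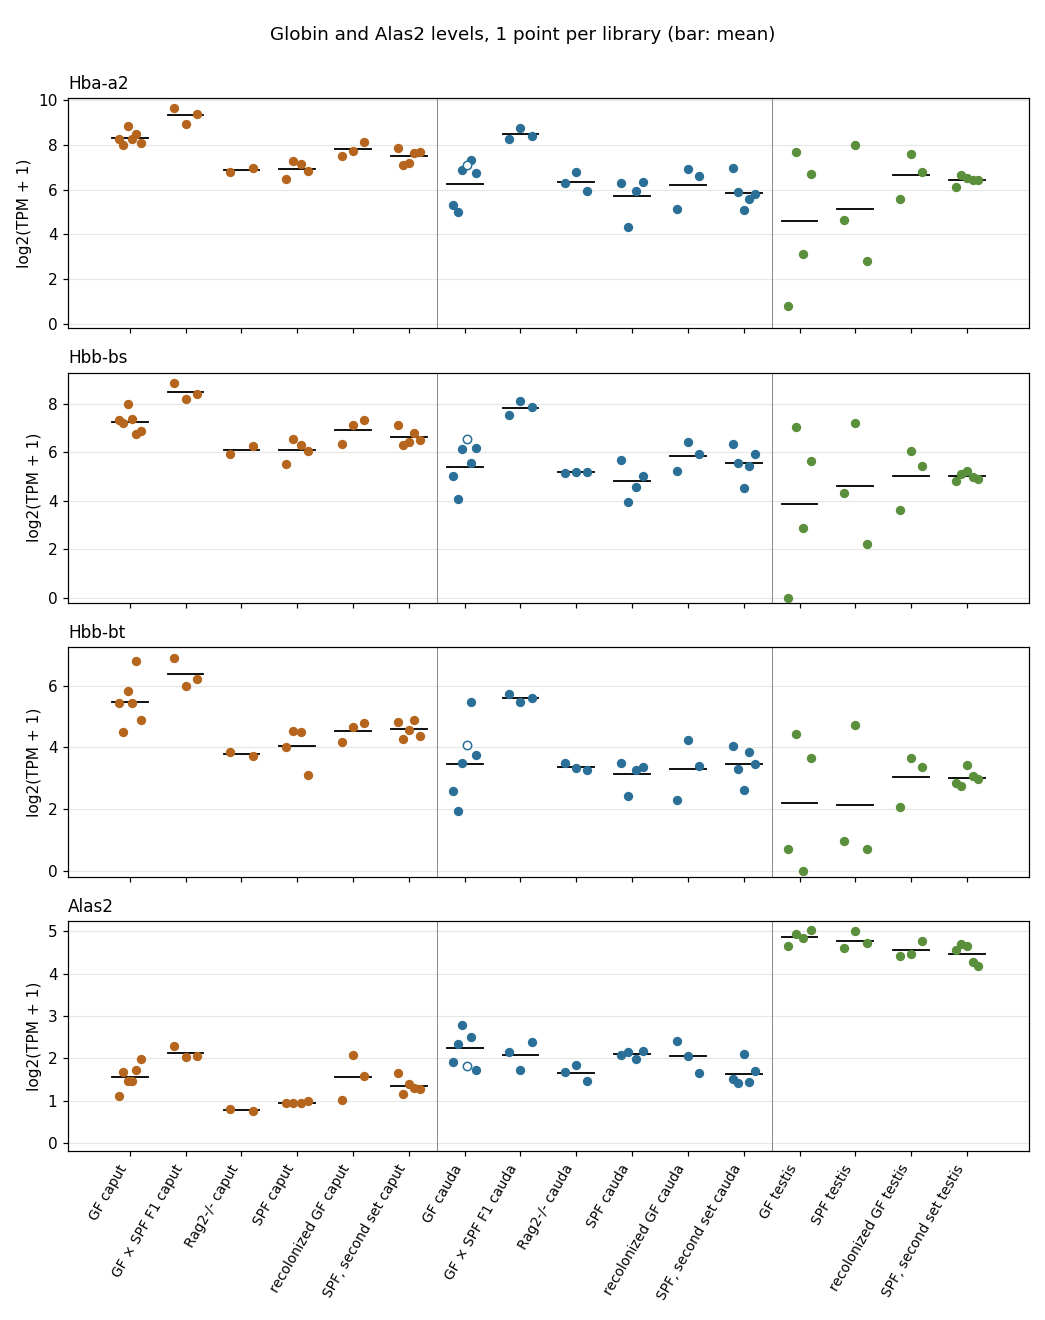
Level of Hba-a2, Hbb-bs, Hbb-bt and Alas2 as log2(TPM + 1), with 1 point per library, the mean of each group as a bar and a separate vertical scale per gene. Open circles mark GF cauda replicate 4, which is left out of the means. The 3 F1 caput and 3 F1 cauda libraries lie above all other libraries of their tissue for Hba-a2 and Hbb-bs, while Alas2 is highest in testis in every group that has testis libraries.

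The alpha-globin row Hba-a2 was present in every library. In the caput it ranged from 86.7 to 792 TPM over 23 libraries, in the cauda from 18.8 to 423 TPM over 23 libraries, and in the testis from 0.75 to 254 TPM over 15 libraries. Its group means in the caput ran in the order F1 (645 TPM), GF (322 TPM), recolonized GF (224 TPM), second-set SPF (183 TPM), SPF (123 TPM) and Rag2-/- (115 TPM). F1 stood clear of GF in that order (lowest F1 library 487 TPM, highest GF library 461 TPM), and each later neighbour overlapped the next. In the cauda the F1 mean of 354 TPM stood clear, and the means of the other groups, between 59.1 and 89.9 TPM, overlapped.

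The testis libraries of the first set fell far apart in globin RNA. Hba-a2 was at 0.75, 201, 7.64 and 104 TPM in GF testis, against 24.0, 254 and 6.04 TPM in SPF testis. Hbb-bs was listed at 0 and then at 129, 6.44 and 48.2 TPM in the same GF testes, against 18.9, 148 and 3.7 TPM in SPF testis. Hbb-bt was at 0.65, 20.4, 0 and 11.7 TPM in GF testis, against 0.98, 25.8 and 0.63 TPM in SPF testis. All 3 rows thus ranked the animals almost alike, with SPF replicate 2 and GF replicates 2 and 4 high and the rest low, and GF and SPF overlapped throughout. None of the 4 genes passed limma between GF and SPF testis, also at an unadjusted p of 0.05 (lowest adjusted p = 0.76), where 0.0423% of 14177 genes were called. The 5 second-set SPF testes were tight by comparison, with Hba-a2 at 69.1, 98.1, 91.5, 84.2 and 85.6 TPM.

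Alas2 varied far less than the globins in testis. Its level there was 17.1 to 31.6 TPM over 15 libraries, a 1.85-fold range, whereas Hba-a2 covered a 339-fold range in the same libraries. GF testis replicate 1, with 1.40 TPM of globin RNA in all, had 24.3 TPM of Alas2, and SPF testis replicate 2, with 428 TPM of globin RNA, had 31.0 TPM. Alas2 was much lower in the epididymis, at 0.70 to 3.90 TPM in caput and 1.65 to 5.92 TPM in cauda.

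Between tissues of SPF mice, the globins were lower in the cauda than in the caput. Hba-a2 averaged 59.1 ± 28.1 TPM in SPF cauda and 123 ± 29.3 TPM in SPF caput (SD, n = 4 each), a log2 difference of -1.20 ± 0.43 (SE; limma, adjusted p = 0.043). Hbb-bs averaged 29.98 ± 15.6 TPM in SPF cauda and 69.7 ± 19.9 TPM in SPF caput (log2 difference -1.28 ± 0.36, adjusted p = 0.016). Hbb-bt missed the threshold (-0.88 ± 0.35, adjusted p = 0.061). Alas2 went the other way, at 3.29 ± 0.25 TPM in SPF cauda and 0.93 ± 0.03 TPM in SPF caput (log2 difference 1.15 ± 0.10, adjusted p = 1.3e-05). Its SPF caput level lay under the mean of 1 TPM needed for testing, so Alas2 entered this test only through its cauda level. These 3 calls stood beside 39.4% of 12425 genes called in the same comparison, and the Hba-a2 call was lost in 4 of 8 fits that left out 1 library (adjusted p up to 0.10).

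The second SPF set gave the same order of tissues for the globins. Hba-a2 was at 122, 58.1, 33.1, 46.5 and 55.0 TPM in its cauda, against 232, 137, 143, 199 and 205 TPM in its caput, and no cauda library reached the lowest caput library, as for 31.2% of the genes tested. All 3 globin rows were lower in cauda, by -1.64 ± 0.29 (Hba-a2), -1.08 ± 0.28 (Hbb-bs) and -1.14 ± 0.24 (Hbb-bt) on the log2 scale (limma, adjusted p between 0.00024 and 0.0041), where 50.3% of 12975 genes were called. Alas2, at 2.16 ± 0.69 TPM in second-set cauda and 1.57 ± 0.34 TPM in second-set caput (SD, n = 5 each), did not pass (log2 difference 0.28 ± 0.14, adjusted p = 0.093). Endothelial markers were lower in cauda as well, with 8 of 10 tested genes called lower in either set (median log2 -1.46 in the second set, against -0.03 over all genes). Fewer cells of a type and less RNA per cell cannot be told apart in such bulk samples, and the part of vessel content in the globin difference was not tested.

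Testis also differed from caput in the second set, with all 4 genes called beside 79.4% of 15107 genes. Hba-a2 averaged 85.7 ± 10.8 TPM in testis and 183 ± 41.3 TPM in caput (SD, n = 5 each), a log2 difference of -1.07 ± 0.15 (limma, adjusted p = 1.5e-05). Hbb-bs and Hbb-bt were lower by -1.63 ± 0.14 and -1.58 ± 0.15 on the same scale. Alas2 averaged 21.4 ± 3.51 TPM in testis and 1.57 ± 0.34 TPM in caput (log2 difference 3.12 ± 0.12, adjusted p = 2.1e-11). In the first set Alas2 was again higher in testis, at 26.7 ± 3.90 TPM (SD, n = 3) and 0.93 ± 0.03 TPM in caput (log2 difference 3.83 ± 0.11, adjusted p = 5.7e-10), and the globins were not called (80.2% of 14643 genes were). Without SPF testis replicate 2, the library rich in globin RNA, all 4 were called there too. The share of all genes called in that refit is not given here. In SPF caput Alas2 lay under the mean of 1 TPM needed for testing, so it entered these first-set tests only through its testis level.

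The globin rows moved together from library to library. Over 23 caput libraries, Pearson's r of log2(TPM + 1) between Hba-a2 and Hbb-bs was 0.96 (Spearman's rho 0.95), over 23 cauda libraries 0.90 (rho 0.80) and over 15 testis libraries 0.97 (rho 0.99). After the group means were subtracted, r between the same rows was 0.81 in caput, 0.84 in cauda and 0.99 in testis, and without the 2 libraries farthest from the median it was 0.73, 0.78 and 0.99. These are descriptions: the rows were measured in the same libraries, share processing and were chosen as a set, so no p is given.

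**Figure D2:**
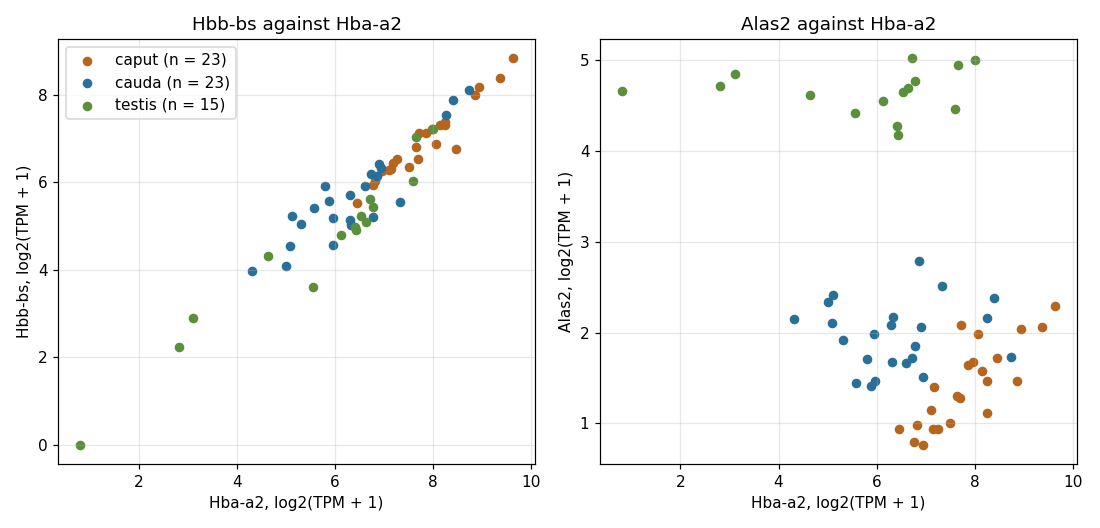
Hbb-bs (left) and Alas2 (right) against Hba-a2, all as log2(TPM + 1), with 1 point per library coloured by tissue and GF cauda replicate 4 left out. Hbb-bs follows Hba-a2 along 1 line in all tissues, whereas Alas2 lies in a flat band near the top for the 15 testis libraries and shows a slope among the 23 caput libraries (r = 0.81) but not among the 23 cauda libraries (r = 0.07).

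Alas2 followed Hba-a2 over the caput libraries only as far as the groups did. Its r with Hba-a2 was 0.81 over 23 caput libraries but 0.15 once the group means were subtracted. In the cauda the values were 0.07 and -0.11, and in the testis 0.03 and 0.52. Over 61 libraries, Alas2 ranked 2000th of 14886 genes by the r of its deviations with the mean deviation of the globin rows (r = 0.15).

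By deviations from group means over 61 libraries, Hba-a2, Hbb-bs and Hbb-bt had r between 0.91 and 0.99 with their own mean, to which each contributes. The 8 nearest other genes were Sox3 (0.59), Fev (0.58), Nat14 (0.56), Ppapdc1a (0.56), Wdr83os (0.55), Gm6890 (0.53), Gm20854 (0.53) and Smok3a (0.52), against a median of -0.06 over all genes. In the testis libraries alone the r of these 8 genes lay between 0.59 and 0.76, in caput between -0.12 and 0.33 (6 genes with a value) and in cauda between -0.07 and 0.65 (7 genes with a value). Among the marker lists, endothelium came closest in the cauda (r = 0.68 and rho = 0.75 over 23 libraries), and in the caput and testis its r was 0.19 and 0.10.

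Most other genes of the red cell programme were below 1 TPM in the caput. The list of red cell membrane and maturation genes held 22 genes, 21 of them in the table, and 3 of these reached a mean of 1 TPM over the F1 and SPF caput libraries. Slc4a1, the band 3 anion exchanger, was at most 0.05 TPM in any F1, GF or SPF caput library. Epb4.2, Rhag, Kel and Trim58 were at 0 in every F1 and every first-set SPF caput library. Others were expressed, such as Ank1, an ankyrin of the membrane skeleton, at 16.4 TPM in SPF cauda and 0.18 TPM in SPF caput. The embryonic globins Hbb-y, Hbb-bh1 and Hba-x were at 0 in every F1, GF and SPF library of caput and cauda.

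In testis some red cell regulators were high in every SPF library. Hemgn averaged 77.9 ± 8.85 TPM in SPF testis (SD, n = 3) and was at 0 in SPF caput. Gata1, which is known to be made in Sertoli cells as well as red cell precursors, averaged 22.5 ± 1.69 TPM in SPF testis and was at 0 in SPF caput. Slc25a37, the mitochondrial iron carrier mitoferrin, averaged 20.4 ± 0.45 TPM in SPF testis and 3.17 ± 0.12 TPM in SPF caput (SD, n = 3 and 4; log2 difference 2.36 ± 0.08, limma, adjusted p = 2.3e-09). Epb4.2 and Rhag of the same red cell list were at 0 in all 3 SPF testis libraries. Of the 21 genes of that list in the table, only 6 were tested between SPF testis and SPF caput. Of these 5 were called higher in testis, as were 7740 of all 14643 genes, with 80.2% called in either direction. Genes at 0 in SPF caput, such as Hemgn and Gata1, could enter this test only through testis. Of 11 heme synthesis genes other than Alas2, 2 were higher, Slc25a37 and Alas1, and 5 lower, led by Urod at 32.0 ± 1.16 TPM in SPF testis and 247 ± 21.1 TPM in SPF caput.

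In the GF caput, the contrast behind the choice of these genes, all 3 globin rows and Alas2 had higher means than in SPF caput. Hba-a2 was lowest at 249, at the median 301 and highest at 461 TPM in GF caput, against 86.7, 152, 140 and 112 TPM in SPF caput. Hbb-bs was at 107, 153 and 255 TPM (lowest, median and highest) in GF caput, against 44.7, 91.5, 77.7 and 64.8 TPM in SPF caput. Every GF library exceeded every SPF library in both rows, as for 2.49% of 11790 genes. Hbb-bt was at 21.5, 42.2 and 111 TPM (lowest, median and highest) in GF caput, against 15.2, 22.2, 21.4 and 7.53 TPM in SPF caput, with an overlap at the low end. Alas2 was at 1.16, 1.98 and 2.97 TPM (lowest, median and highest) in GF caput, against 0.92, 0.91, 0.91 and 0.98 TPM in SPF caput, again without overlap.

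The log2 differences in GF caput were 1.39 for Hba-a2, 1.16 for Hbb-bs, 1.45 for Hbb-bt and 0.62 for Alas2. The fit across all genes called 1 of the 4, Hba-a2, beside 0.348% of 11790 genes, and nothing is read from that count because this contrast chose the genes. Against the second SPF set, a comparison added after seeing the data, the differences were smaller, at 0.81 for Hba-a2, 0.62 for Hbb-bs, 0.89 for Hbb-bt and 0.22 for Alas2. Summed endothelial markers were 187 to 209 TPM in GF caput and 172 to 218 TPM in SPF caput, and summed red cell membrane and maturation genes 28.2 to 33.4 TPM in GF caput and 30.5 to 33.1 TPM in SPF caput. Summed macrophage markers were 547 to 629 TPM in GF caput and 448 to 526 TPM in SPF caput, and their part in the globin levels was not tested.

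The F1 caput held the highest globin levels of any library group. Hba-a2 was at 792, 487 and 657 TPM in F1 caput, against 86.7, 152, 140 and 112 TPM in SPF caput. Hbb-bs was at 457, 291 and 335 TPM in F1 caput, against 44.7, 91.5, 77.7 and 64.8 TPM in SPF caput. No SPF library reached the lowest F1 library in either row. Hbb-bt was at 119, 62.0 and 72.9 TPM in F1 caput, against 15.2, 22.2, 21.4 and 7.53 TPM in SPF caput. Alas2 was at 3.90, 3.12 and 3.16 TPM in F1 caput, against 0.92, 0.91, 0.91 and 0.98 TPM in SPF caput. The groups did not overlap in any of the 4 genes, where 20.7% of 12041 genes lay wholly higher in F1.

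All 4 genes rose in the F1 caput, where 2.72% of the genes tested were called and 2.14% were called higher. The log2 differences were 2.39 ± 0.23 for Hba-a2 (SE; limma, adjusted p = 0.0081), 2.38 ± 0.25 for Hbb-bs (adjusted p = 0.010), 2.33 ± 0.37 for Hbb-bt (adjusted p = 0.029) and 1.18 ± 0.10 for Alas2 (adjusted p = 0.0032). The 3 globin rows therefore changed by nearly the same factor, 5.04 to 5.24-fold on the log2(TPM + 1) scale, and Alas2 by 2.27-fold, a fold that the pseudocount of 1 understates at such low levels (ratio of mean TPM 3.65). With a pseudocount of 0.1 the log2 difference of Alas2 was 1.76. Alas2 averaged 0.93 TPM in SPF caput, under the mean of 1 TPM needed for testing, so it entered this test only through its F1 level. This comparison used the same SPF libraries as that of GF caput, which chose the genes. Its p-values are therefore not free of that choice, above all for Hba-a2. Against the second SPF set, added after seeing the data, the 4 genes were called as well (limma, adjusted p of at most 0.0020). The log2 differences were 1.81 (Hba-a2), 1.84 (Hbb-bs), 1.78 (Hbb-bt) and 0.78 (Alas2). This fit used the same F1 libraries, and the SPF sets themselves differed in 19% of 12336 genes in the caput. It is not an independent repeat, and the 2.72% above does not refer to it. The share of all genes called in that fit is not given here, so nothing is read from its calls. Against the first set, the Hbb-bt call was lost in 6 of 7 fits that left out 1 library (limma, adjusted p from 0.018 to 0.092). The exception was the fit without SPF caput replicate 4, and the other 3 calls were kept in all 7.

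**Figure D3:**
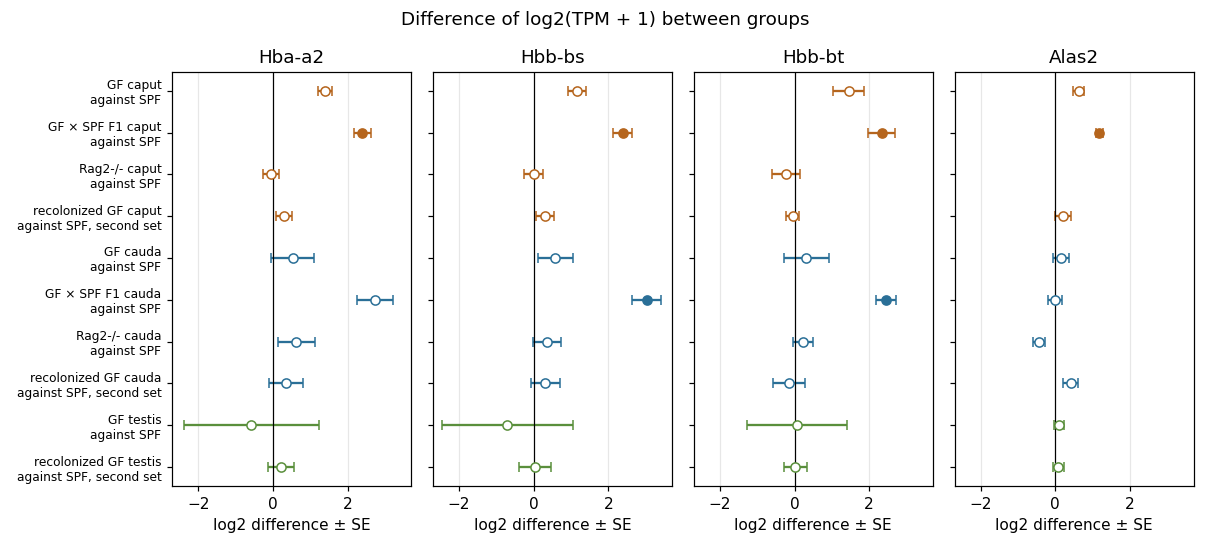
Difference of mean log2(TPM + 1) between each group and its SPF reference, in log2 units with the standard error from limma, for the 4 genes. Filled points passed the test, and open points did not. GF caput is drawn open throughout, as a description, because that contrast chose the genes. The F1 caput stands at 2.33 to 2.39 for the 3 globins, the F1 cauda at 2.45 to 3.02, and recolonized GF and Rag2-/- tissues lie between -0.43 and 0.63. Alas2 in Rag2-/- caput is blank because it fell under the filter on low values.

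Other cell markers in the F1 caput moved less than the globins. Among heme synthesis genes other than Alas2, 1 of 11 was called, Fech, the enzyme that puts iron into the ring, at 31.5 ± 1.95 TPM in F1 caput (SD, n = 3) and 20.3 ± 3.50 TPM in SPF caput (SD, n = 4; log2 difference 0.62 ± 0.13, limma, adjusted p = 0.043). The median of the 11 was 0.20, beside 0.11 over all genes. Of 10 endothelial genes 1 rose, Vwf (log2 difference 0.75 ± 0.14, adjusted p = 0.037), with a list median of 0.06 and summed levels of 189 to 207 TPM in F1 caput and 172 to 218 TPM in SPF caput. Of 7 macrophage genes 2 rose, Lyz2 (0.90 ± 0.15, adjusted p = 0.033) and Cd68 (0.81 ± 0.15, adjusted p = 0.035), with summed levels of 653 to 689 TPM in F1 caput and 448 to 526 TPM in SPF caput. Of 3 tested red cell membrane and maturation genes none was called, and their whole list summed to 38.8 to 41.8 TPM in F1 caput and 30.5 to 33.1 TPM in SPF caput. No gene of the scavenging and iron list (10 tested), of the other globins (2), of platelet (2), neutrophil (1) or lymphocyte (1) markers, or of the spermatid (4) and caput epithelium (5) lists was called. Summed neutrophil markers were 3.99 to 4.78 TPM in F1 caput and 2.05 to 2.63 TPM in SPF caput, without overlap. Summed lymphocyte markers were 5.74 to 8.33 TPM in F1 caput and 2.96 to 4.73 TPM in SPF caput, also without overlap. Summed platelet markers overlapped, at 16.6 to 22.6 TPM in F1 caput and 20.0 to 22.1 TPM in SPF caput. Whether these cells or the blood held by the tissue had a part in the globin difference was not tested.

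The globins were also high in the F1 cauda. Hba-a2 was at 304, 423 and 336 TPM in F1 cauda, against 77.7, 18.8, 60.9 and 79.1 TPM in SPF cauda. Hbb-bs was at 185, 273 and 234 TPM in F1 cauda, against 51.0, 14.7, 22.8 and 31.5 TPM in SPF cauda. Hbb-bt was at 52.1, 43.1 and 47.6 TPM in F1 cauda, against 10.4, 4.41, 8.69 and 9.36 TPM in SPF cauda. Each F1 library was above each SPF library in all 3 rows, as for 22% of the genes tested, and SPF cauda replicate 2 was the lowest throughout. Alas2 was at 3.46, 2.31 and 4.23 TPM in F1 cauda, against 3.23, 3.44, 2.97 and 3.52 TPM in SPF cauda, and the F1 libraries lay on both sides of the SPF libraries.

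In the test, Hbb-bs and Hbb-bt rose in the F1 cauda, by 3.02 ± 0.39 and 2.45 ± 0.27 on the log2 scale (limma, adjusted p = 0.044 and 0.030), where 0.188% of 12784 genes were called and 0.172% were called higher. Hba-a2, with a log2 difference of 2.74 ± 0.49, had an adjusted p of 0.080, and Alas2 did not pass (-0.01 ± 0.18, adjusted p = 0.98). Hbb-bs kept its call only without SPF cauda replicate 1, and Hbb-bt only without SPF cauda replicate 2, when libraries were left out in turn. Both calls were also lost with a pseudocount of 0.1 or without the filter on low values (adjusted p between 0.052 and 0.073), although the log2 differences stayed between 2.45 and 3.07. Without SPF cauda replicate 2, Hba-a2 passed as well (adjusted p = 0.035). Against the second SPF set, added after seeing the data, the 3 globin rows were called higher in F1 (limma, adjusted p of at most 0.0096). The F1 libraries were the same, and the 0.188% above does not refer to that fit. The shares of all genes called in that fit and in the refits above are not given here, so nothing is read from those calls.

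None of the genes on the marker lists of other cells passed in the F1 cauda, but some list medians lay above that of all genes. The median log2 difference was 0.63 for 11 endothelial genes, 0.85 for 7 macrophage genes and 1.00 for the 3 tested globins of other cells (Mb, Cygb and Ngb), beside 0.28 over all genes. Summed endothelial markers were 98.6 to 122 TPM in F1 cauda and 57.1 to 110 TPM in SPF cauda. Summed macrophage markers were 571 to 637 TPM in F1 cauda and 181 to 408 TPM in SPF cauda, without overlap. Summed platelet markers were 52.6 to 71.3 TPM in F1 cauda and 25.6 to 42.9 TPM in SPF cauda, without overlap. Summed lymphocyte markers were 6.48 to 8.14 TPM in F1 cauda and 4.01 to 5.27 TPM in SPF cauda, also without overlap. Summed neutrophil markers overlapped, at 1285 to 1855 TPM in F1 cauda and 1403 to 2246 TPM in SPF cauda. The medians of 5 spermatid and 5 caput epithelium genes were 1.66 and 1.25. Myoglobin (Mb), the oxygen-binding globin of muscle, averaged 234 ± 261 TPM in F1 cauda (SD, n = 3) and 49.2 ± 11.01 TPM in SPF cauda (SD, n = 4), with 1 F1 library at 533 TPM. The red cell membrane and maturation list summed to 65.3 to 99.9 TPM in F1 cauda and 49.4 to 62.2 TPM in SPF cauda, without overlap, and its 4 tested genes had a median log2 difference of 0.62. Within it Slc4a1, Epb4.2, Rhag, Trim58 and Gata1 were at 0 in all 3 F1 cauda libraries. The part of vessels, muscle, macrophages or other blood cells in the globin difference was not tested.

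The difference between F1 and SPF was set side by side in the caput and the cauda. For the globins the effect in cauda minus that in caput was 0.35 ± 0.58 (Hba-a2), 0.64 ± 0.50 (Hbb-bs) and 0.12 ± 0.50 (Hbb-bt) on the log2 scale, and none passed (limma interaction, adjusted p of at least 0.71). For Alas2 it was -1.19 ± 0.20 (adjusted p = 0.040), where 0.164% of 12787 genes were called. The F1 effect on Alas2 was thus lower in the cauda than in the caput. This call was kept in only 3 of 14 fits that left out 1 library, those without SPF cauda replicate 1, F1 cauda replicate 1 or F1 cauda replicate 3 (adjusted p from 0.0091 to 0.11 over the 14), and it was lost under median-ratio scaling (adjusted p = 0.060).

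In the GF cauda, without the swollen replicate 4, Hba-a2 was at 38.9, 31.2, 115, 160 and 105 TPM, against 77.7, 18.8, 60.9 and 79.1 TPM in SPF cauda. Hbb-bs was at 31.8, 16.0, 69.6, 45.6 and 71.4 TPM in GF cauda, against 51.0, 14.7, 22.8 and 31.5 TPM in SPF cauda. The groups overlapped in both rows, with GF replicates 3, 5 and 6 above every SPF library for Hba-a2. Alas2 averaged 3.95 ± 1.47 TPM in GF cauda (SD, n = 5) and 3.29 ± 0.25 TPM in SPF cauda (SD, n = 4). None of the 4 genes passed limma, also at an unadjusted p of 0.05 (lowest adjusted p = 0.62), where 0.144% of 12493 genes were called. Against the second SPF set, added after seeing the data, Alas2 alone was called, higher in GF cauda (limma, adjusted p = 0.032). Alas2 averaged 2.16 ± 0.69 TPM in second-set SPF cauda (SD, n = 5), below its 3.29 TPM in the first set. The 0.144% above does not refer to this fit. The share of all genes called in it is not given here, so nothing is read from that call.

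In the Rag2-/- epididymis, compared with the same SPF libraries as GF and F1, none of the genes passed the test. Hba-a2 was at 108 and 123 TPM in Rag2-/- caput, against 86.7, 152, 140 and 112 TPM in SPF caput, and the Rag2-/- values lay inside the SPF range. Log2 differences in caput were -0.06 ± 0.22 for Hba-a2, 0.00 ± 0.26 for Hbb-bs and -0.23 ± 0.37 for Hbb-bt (limma, adjusted p of at least 0.77, none at an unadjusted p of 0.05), where 0.159% of 11915 genes were called. Alas2, at 0.74 and 0.70 TPM in Rag2-/- caput, fell under the filter there. In the cauda Hba-a2 was at 78.5, 109 and 61.1 TPM in Rag2-/- mice, against 77.7, 18.8, 60.9 and 79.1 TPM in SPF mice.

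Alas2 was the 1 gene of the 4 whose Rag2-/- and SPF cauda libraries did not overlap. It was at 2.20, 2.61 and 1.76 TPM in Rag2-/- cauda, against 3.23, 3.44, 2.97 and 3.52 TPM in SPF cauda, beside 9.46% of genes that lay wholly lower. The log2 difference of -0.43 ± 0.15 did not pass (limma, adjusted p = 0.39), and it was the 1 of 4 genes at an unadjusted p of 0.05. In this comparison 0.130% of 12293 genes were called. Against the second SPF set, added after seeing the data, Hbb-bt alone was called in Rag2-/- caput, where it was lower (limma, adjusted p = 0.015). It averaged 12.9 TPM in Rag2-/- caput, 16.6 TPM in first-set SPF caput and 23.4 TPM in second-set SPF caput. The SPF sets themselves differed in 19% of 12336 genes in the caput, and the 0.130% above does not refer to this fit. The share of all genes called in it is not given here, so nothing is read from that call.

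Recolonized GF mice descend from GF mice but were kept with microbes, and none of the 4 genes passed limma between them and the second SPF set. Hba-a2 was at 180, 210 and 281 TPM in recolonized caput, against 232, 137, 143, 199 and 205 TPM in second-set SPF caput. In the cauda it was at 33.7, 118 and 96.1 TPM in recolonized mice, against 122, 58.1, 33.1, 46.5 and 55.0 TPM in second-set SPF mice. In the testis it was at 46.1, 191 and 109 TPM in recolonized mice, against 69.1, 98.1, 91.5, 84.2 and 85.6 TPM in second-set SPF mice. The groups overlapped in all 3 tissues, and recolonized testis replicate 1 was the low one, as recolonized cauda replicate 1 was in the cauda.

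The log2 differences of the globins in recolonized mice lay between -0.14 and 0.35, and those of Alas2 between 0.08 and 0.41 (lowest adjusted p = 0.36, none of the 4 at an unadjusted p of 0.05 in any tissue). The shares of all genes called were 1.28% in testis, 0.175% in caput and 0.323% in cauda. Without recolonized testis replicate 1, Hba-a2 and Hbb-bs were called higher in recolonized testis (limma, adjusted p = 0.030 and 0.020). The 1.28% refers to the testis fit with all libraries, in which 4362 of 14264 genes were at an unadjusted p under 0.05. The share of all genes called without that library is not given here, so nothing is read from those calls. The effect of Rag2 loss in cauda minus that in caput, and likewise the effect of recolonization, passed for none of the 4 genes (limma interaction, lowest adjusted p = 0.67 and 0.77, none at an unadjusted p of 0.05), where 0.12% and 0.131% of genes were called. Between recolonized and second-set SPF mice the standard errors of Hba-a2 were 0.21 in caput, 0.46 in cauda and 0.35 in testis on the log2 scale. In the interactions they were 0.63 for Rag2 loss and 0.55 for recolonization.

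The spread between the SPF sets describes how far these genes differed between these controls. In the caput the first set took part in the choice of the genes, so the difference there is not free of that choice. Alas2, at 0.93 TPM in first-set caput, lay under the mean of 1 TPM needed for testing and entered only through the second set. In the caput the second set was higher than the first by 0.58 ± 0.20 for Hba-a2 (limma, adjusted p = 0.036) and 0.41 ± 0.10 for Alas2 (adjusted p = 0.0062), both under the 1.5-fold threshold, where 19% of 12336 genes were called. Hba-a2 averaged 183 ± 41.3 TPM in second-set caput (SD, n = 5) and 123 ± 29.3 TPM in first-set caput (SD, n = 4). In the cauda and the testis none of the 4 genes was called between sets (0.0874% and 17.7% of genes were), with 1 of the 4 and none at an unadjusted p of 0.05. Without SPF testis replicate 2 the 3 globin rows were called in testis, higher in the second set. In the caput the call of up to 2 genes appeared when SPF replicate 2 or 3, or second-set replicate 2 or 3, was left out. The shares of all genes called in these refits are not given here.

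The ratio of the beta rows stood apart in 2 libraries. Over 58 libraries with Hbb-bs above 0, leaving out GF caput replicate 5 and GF cauda replicate 5, the ratio of Hbb-bt to Hbb-bs had a median of 0.22 and a maximum of 0.38. It ranged from 0.116 to 0.339 in caput, from 0.109 to 0.382 in cauda and from 0 to 0.284 in testis, where Hbb-bt was listed at 0 in GF replicate 3. It was 1.04 in GF caput replicate 5, with 107 TPM of Hbb-bs and 111 TPM of Hbb-bt, and 0.96 in GF cauda replicate 5, with 45.6 and 43.5 TPM. The next highest ratios of these groups were 0.27 in caput and 0.18 in cauda. Hba-a2 in the same libraries, at 351 and 160 TPM, was the second highest and the highest of its groups, and the ratio of summed beta rows to Hba-a2, 0.62 and 0.56, was within that of the other libraries (0.31 to 1.26). The labels do not say whether both libraries came from 1 animal. The beta rows share all but 1 coding base, as shown above, and the part of that in these ratios was not tested.

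**Figure D4:**
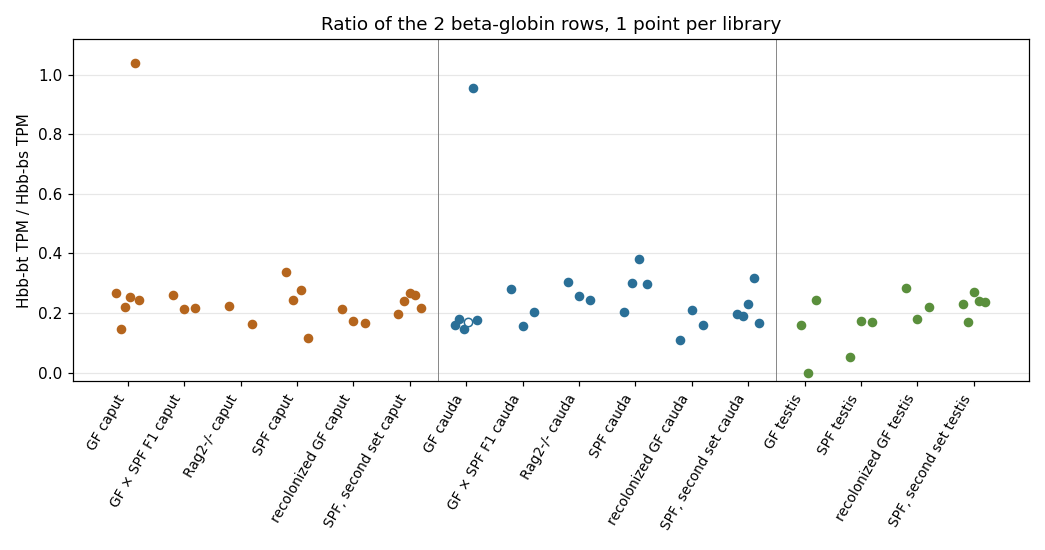
Ratio of Hbb-bt TPM to Hbb-bs TPM in each library, by group (GF testis replicate 1, with Hbb-bs at 0, has no ratio, and the open circle is GF cauda replicate 4). GF caput replicate 5 and GF cauda replicate 5 lie at 1.04 and 0.96, and every other library lies at or below 0.38.

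Leaving out GF caput replicate 5 changed how closely the beta rows agreed. Over the caput, r of the deviations from group means between Hbb-bs and Hbb-bt was 0.29 with it and 0.67 without it, and that between Hba-a2 and Hbb-bs was 0.81 with it and 0.90 without it. Over the cauda, r between Hbb-bs and Hbb-bt was 0.68 with GF cauda replicate 5 and 0.87 without it.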

How the data were processed

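Libraries were prepared from polyadenylated RNA with a stranded kit and sequenced as paired reads. The authors aligned reads to mm10 and quantified genes with RSEM (version not given in the sources used here), and deposited TPM for 23845 genes in 62 libraries. Each column sums to between 999999 and 1000001. TPM keep no depth, so precision was taken from replicates alone.

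Differences were tested with limma 3.58.1 (R 4.3.3) on log2(TPM + 1) in the libraries of each comparison, keeping genes whose mean reached 1 TPM, with Benjamini-Hochberg adjustment over all genes tested. A call needed both an adjusted p no higher than 0.05 and a 1.5-fold change, as in the study, which itself tested raw counts. Changes of low genes are understated on this scale. Caput and cauda libraries were treated as independent. The members and lists were chosen with earlier results of these data known. The first-set SPF caput libraries took part in the choice of the members, so comparisons that reuse them are not free of it. All members were named, up to 4 called genes of each of 11 lists (115 genes, 114 in the table, 3 under older symbols) and the 8 genes most like the globin rows. Alternatives are given in the closing section.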

Additional observations from a re-analysis of the deposited data

Results flagged for a closer look

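Of 46 groups examined over the member levels and their ratios, 6 had a library whose gap to its neighbour was wider than Dixon's criterion allows, and chance flags about 1 in 20 groups. The ratio of Hbb-bt to Hbb-bs was 1.04 in GF caput replicate 5 and 0.96 in GF cauda replicate 5, far above the other libraries of those groups, and Hbb-bt itself was highest in GF cauda replicate 5 at 43.5 TPM. Hba-a2 was 122 TPM in second-set SPF cauda replicate 1, with the next library at 58.1 TPM. Alas2 was 0.98 TPM in SPF caput replicate 4, with the others between 0.91 and 0.92 TPM, a gap near the rounding of the table. The ratio of Hba-a2 to Hbb-bs was 2.26 in second-set SPF caput replicate 5, against at most 1.79 in the others.

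The F1 effect on Alas2 differed between cauda and caput by -1.19 on the log2 scale in the interaction test (limma, adjusted p = 0.040). The call was kept in only 3 of 14 fits that left out 1 library (adjusted p up to 0.11), and it was lost under median-ratio scaling. GF cauda replicate 4, the swollen cauda used in no comparison, had 137 TPM of Hba-a2, 93.5 TPM of Hbb-bs and 15.8 TPM of Hbb-bt, each above the highest SPF cauda library (79.1, 51.0 and 10.4 TPM), and 2.52 TPM of Alas2.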

How the results depend on the processing

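Every comparison was refitted with a pseudocount of 0.1, without the filter, with median-ratio scaling, with all groups in 1 fit (except the interactions), with the replicate number as a block and without each library in turn, and the count of members called was compared. With a pseudocount of 0.1 it became 0 in F1 cauda and 1 between the SPF sets in caput (Alas2), and without the filter 0 in F1 cauda. Scaling gave 3 in SPF testis against SPF caput and 0 for the F1 interaction. The single fit gave 3 in GF caput, 1 in SPF cauda against SPF caput and 4 in SPF testis against SPF caput. Against the second SPF set, chosen after seeing the data, it was 3 in GF caput, 1 in Rag2-/- caput, 1 in GF cauda and 3 in F1 cauda. All counts for GF caput are descriptions, since that contrast chose the genes. The shares of all genes called in these refits are not given here.

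Replicate numbers were not taken to pair the libraries. Same-numbered libraries correlated at no more than 0.1 in at least 1 pair of every comparison with 3 or more pairs. Most of these comparisons set different animals side by side, and GF caput was not set against GF cauda. Which libraries share an animal is therefore unknown. With the replicate block the count was 2 in GF caput, 0 in F1 caput, where the block left no call among 12041 genes (adjusted p = 0.094 for Hba-a2, Hbb-bs, Hbb-bt and Alas2, with log2 differences of 2.36, 2.36, 2.02 and 1.19), 0 in F1 cauda, 1 in SPF cauda against SPF caput, 2 in SPF testis against SPF caput and 0 for the F1 interaction. In none of the comparisons did every library correlate best with its own number.

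Without 1 library the count ranged from 0 to 2 in GF caput, 3 to 4 in F1 caput, 0 to 2 in F1 cauda, 0 to 2 in recolonized testis, 0 to 3 between the SPF sets in testis and 0 to 2 in caput, 2 to 4 in SPF cauda against SPF caput, 1 to 4 in SPF testis against SPF caput and 0 to 1 for the F1 interaction. No called member changed sign. Of members that did not pass, 61 of 521 refits without a library and 17 of 295 others turned the sign, and none of these passed. For Hba-a2 with Hbb-bs in testis, r of the deviations was 0.98 with a pseudocount of 0.1 and rho was 0.98, against 0.99. The cause of these changes was not tested. With TPM alone, counting error of low genes such as Alas2 in caput is unknown.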
